A study of Homo sapiens with 22 samples.

Results

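The cytosolic ribosome is built from ribosomal RNA and a set of ribosomal proteins, and the messenger RNAs of its protein genes were followed here in RNA recovered with PSF. The genes were chosen by symbol alone: RPS or RPL with a number (with or without a suffix letter or a copy number), RPSA, RPLP0, RPLP1 or RPLP2, on an autosome, with a coding transcript, and without the RPS6K kinase genes. The rule found 79 of the 20294 gene symbols in the files, 30 of the small subunit and 49 of the large subunit. The large subunit set includes the 3 stalk proteins, and 7 of the 79 are paralogue copies with an L in the symbol (RPL3L, RPL7L1, RPL10L, RPL22L1, RPL26L1, RPL39L and RPS27L). Another 4 symbols fit the pattern but lie on the X chromosome and were left out (RPL10, RPL36A, RPL39 and RPS4X).

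PSF, also called SFPQ, is a nuclear RNA-binding protein of the paraspeckle that takes part in splicing and transcription. RNA immunoprecipitation sequencing (RIP-seq) compares the RNA that comes down with an antibody against the protein with the RNA of the whole lysate, the input. The 3 prostate cancer lines were LNCaP, an androgen-responsive line from a lymph node metastasis, 22Rv1, from a relapsed xenograft, and a line labelled LTAD, whose name the labels do not spell out. LNCaP and 22Rv1 were cultured in RPMI 1640 with 10% fetal bovine serum and LTAD in phenol-red-free medium with 10% charcoal/dextran-treated serum, per the labels. All cells then spent 3 days in 2.5% charcoal/dextran-treated serum and were given ethanol as vehicle or the androgen dihydrotestosterone (DHT) at 10 nM, both for 24 h. A single library was made for each combination of line, treatment and assay, 12 in all, which gives 6 pairs of input and PSF-RIP. With a single library per combination there are no replicates. The p-values rest on how far the lines and treatments depart from the fitted terms, not on a spread between like cultures. No label says that the libraries of a line came from separate cultures, so part of these departures may be technical. No immunoglobulin control was analysed here, and "higher" and "lower" in PSF-RIP are always relative to input.

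Mapped reads ran from 1073228 (LTAD vehicle) to 3014049 (22Rv1 vehicle) in the inputs and in PSF-RIP from 4641602 (LNCaP DHT) to 10439461 (22Rv1 vehicle). The inputs had reads on 9 of 9 luminal prostate markers, with a summed level of 1830 to 6610 CPM (read counts scaled to a common library size). Of 3 basal markers 1 had reads (summed 0 to 1.62 CPM), with KRT5 and TP63 at 0. Of 3 stromal markers 2 had reads (6.71 to 18.1 CPM, COL1A2 at 0), and of 3 leukocyte markers 2 (3.66 to 42 CPM, CD3E at 0). CPM use TMM-scaled library sizes throughout, exon and intron reads each on their own library size.

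Messenger RNAs of ribosomal proteins are among the most abundant of a growing cell and leave the nucleus to be translated on ribosomes in the cytoplasm. Most of them start with a C followed by a run of pyrimidines, the 5′ terminal oligopyrimidine (TOP) motif, through which their translation follows nutrient and mTOR signals. Their genes are short, many of their introns hold small nucleolar RNAs (snoRNAs), and the genome holds many processed pseudogene copies of them.

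The starts of 4 of these genes are shown because the genes lie at different points of the range found below: RPS12 was the lowest and RPS3A the highest tested gene in the RefSeq promoter table, RPLP0 is a common reference gene, and RPL3 lay near input. Each is the 80 bases before and the 20 bases from the RefSeq start site on GRCh38.p14, and capitals mark the unbroken run of C and T from the first transcribed base.
RPS12 (chr6:132814489-132814588, plus strand): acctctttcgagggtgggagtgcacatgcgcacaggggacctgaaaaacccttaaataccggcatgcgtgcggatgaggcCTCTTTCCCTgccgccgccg
RPLP0 (chr12:120201092-120201191, minus strand): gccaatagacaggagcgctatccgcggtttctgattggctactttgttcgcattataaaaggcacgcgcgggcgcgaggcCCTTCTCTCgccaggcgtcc
RPL3 (chr22:39319604-39319703, minus strand): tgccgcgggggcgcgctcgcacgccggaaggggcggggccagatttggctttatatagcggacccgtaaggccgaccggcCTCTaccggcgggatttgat
RPS3A (chr4:151099548-151099647, plus strand): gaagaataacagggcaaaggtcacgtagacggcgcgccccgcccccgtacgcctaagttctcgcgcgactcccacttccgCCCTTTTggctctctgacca
The run is 10 bases in RPS12, 9 in RPLP0, 7 in RPS3A and 4 in RPL3. The promoter table held 63 of the 79 genes, and 41 of them (65.1%) started with a C and at least 5 pyrimidines in a row, against 4.04% of all 27305 promoters in the table. The letters CTTCCG, searched on both strands of the 300 bases around the start, occurred in 60.3% of the 63 promoters and in 19.9% of all. CTTTCC, searched in the same way, occurred in 41.3% and 26.3%, and matches of the searches can overlap.

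Exon reads of ribosomal protein genes were a smaller share of PSF-RIP than of input in every line and treatment. They made up 2.73% (22Rv1 DHT) to 4.19% (LTAD vehicle) of the exon reads of nuclear genes in the inputs and 0.839% (22Rv1 vehicle) to 1.31% (LTAD vehicle) in PSF-RIP. Gene by gene, 68 of the 73 tested were lower in PSF-RIP, 1 was higher and 4 did not pass (edgeR quasi-likelihood test over all genes, Benjamini-Hochberg adjusted p under 0.05). Over all 13367 genes tested, 27.5% were lower and 30.5% higher. The median log2 ratio of PSF-RIP to input was -1.75 for the ribosomal protein genes, with a range of -3.87 to 1.47, and 0.05 for all genes. The 6 pairs gave close medians, from -1.93 (LTAD vehicle) to -1.71 (LNCaP vehicle), and 68 to 71 of the 73 genes lay below 0 in each pair, where 45% to 49% of all genes did. Short messages were lower in general: after the trend of the ratio with exonic length over all genes was taken out, the median was -0.82. In that fit 55 ribosomal protein genes were lower. Its share over all genes is not given here, and the 27.5% above belongs to the main fit.

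**Figure D1:**
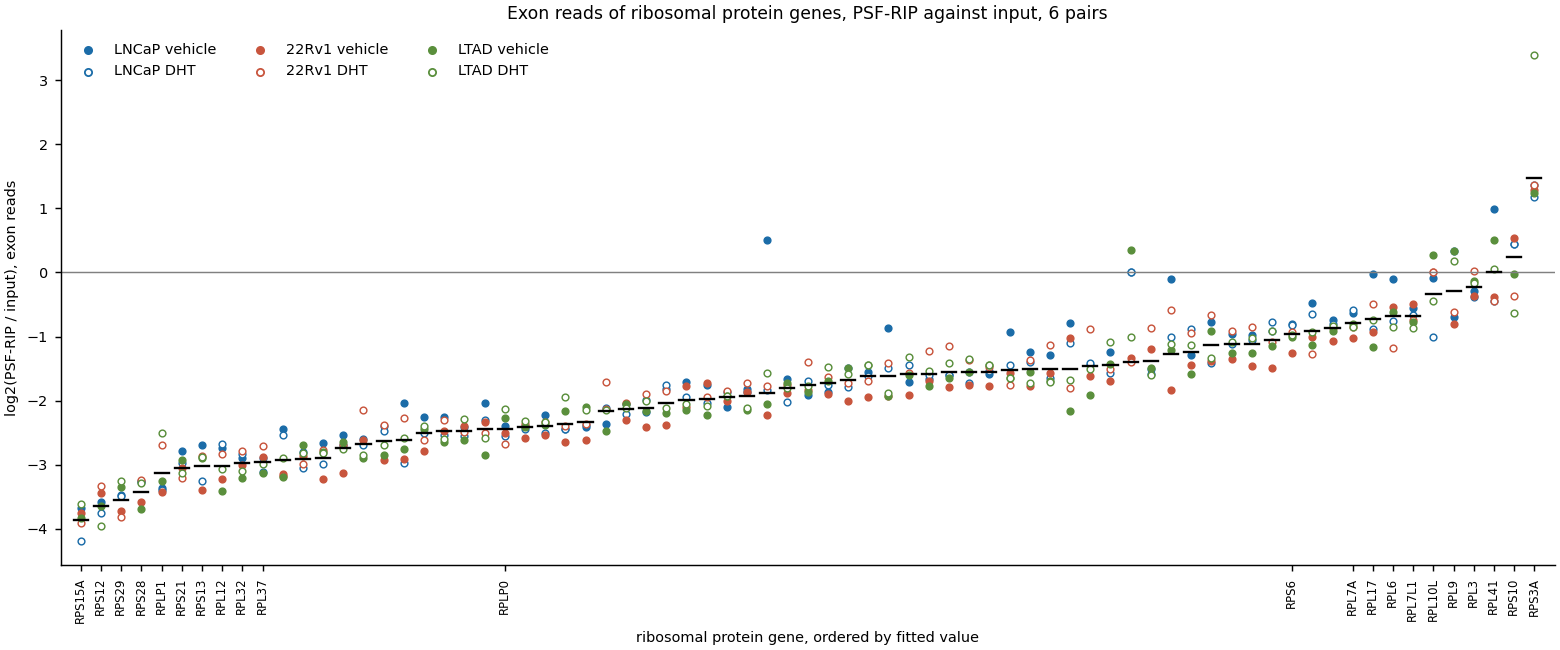
Log2 ratio of PSF-RIP to input exon reads (vertical axis, prior count of 2) for the 73 tested ribosomal protein genes, ordered by the fitted value (black bar), with the 10 lowest and 10 highest genes, RPLP0 and RPS6 named. Points are the 6 pairs, filled for vehicle and open for DHT. Almost all points lie below 0, and RPS3A at the right end lies above 0 in all 6 pairs.

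The lowest genes were mostly small subunit proteins. RPS15A, a small subunit protein, had 193, 155, 146, 120, 236 and 159 exon CPM in the inputs (in the order LNCaP vehicle, LNCaP DHT, 22Rv1 vehicle, 22Rv1 DHT, LTAD vehicle, LTAD DHT, used throughout). In PSF-RIP it had 14.5, 8.02, 10.3, 7.45, 16 and 12.5. The groups did not overlap, and the log2 ratio was -3.87 (SE 0.10, adjusted p = 1.78e-17, lower in 6 of 6 pairs). RPS12, of the small subunit head, had 302, 266, 306, 293, 262 and 259 CPM in the inputs and 24.8, 19, 27.5, 28.6, 20.5 and 16.2 in PSF-RIP. Its inputs differed little between lines and every PSF-RIP value was below every input, with a log2 ratio of -3.64 (SE 0.10, adjusted p = 3.48e-17). The small subunit proteins RPS29 (-3.55), RPS28 (-3.42), RPS21 (-3.06) and RPS13 (-3.02) followed. The other 4 of the 10 lowest belong to the large subunit: the stalk protein RPLP1 (-3.13), RPL12 at the base of the stalk (-3.02), RPL32 (-2.98) and RPL37 (-2.96). Each of these 10 was lower in 6 of 6 pairs.

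The stalk recruits translation factors to the large subunit, and all 3 of its proteins were lower. RPLP0, the scaffold of the stalk and a common reference gene, had 379, 351, 464, 432, 334 and 223 exon CPM in the inputs and 71.3, 59.4, 81.2, 67.5, 69 and 50.6 in PSF-RIP. The groups lay far apart, at a log2 ratio of -2.44 (SE 0.10, adjusted p = 1.34e-14). RPLP2 gave -2.47 and RPLP1 -3.13, so that 3 of 3 were lower.

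Some genes of both subunits, the abundant RPS6 and RPL3 among them, were recovered much closer to input. RPS6, the small subunit protein phosphorylated by S6 kinases, had one of the highest input levels per length, 1920 CPM per kb of exon on average, after RPL37A (2140) and RPL8 (2040). Its inputs held 1820, 1910, 1250, 1100, 1850 and 1620 exon CPM and its PSF-RIP libraries 1050, 1080, 524, 579, 925 and 829. It was lower in each pair, by less than the list's median (log2 ratio -0.96, SE 0.09, adjusted p = 1.1e-08), and with the length trend taken out its value was -0.02. RPL3, a large subunit protein near the catalytic centre, had 969, 1060, 658, 509, 985 and 859 CPM in the inputs and 791, 813, 511, 520, 896 and 765 in PSF-RIP. Its groups overlapped, and the log2 ratio of -0.22 (SE 0.09, adjusted p = 0.0356, lower in 5 of 6 pairs) was lost without the LNCaP pairs (adjusted p = 0.215) or the 22Rv1 pairs (0.0719). The large subunit genes RPL7A (-0.79), RPL17 (-0.72) and RPL6 (-0.68) and the paralogue copy RPL7L1 (-0.68) were lower in 6 of 6 pairs. RPL17 shares its strand with the read-through gene RPL17-C18orf32 and RPL13A with RPL13AP5, and reads of such pairs may be split between the symbols.

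RPS3A, a small subunit protein, was the only ribosomal protein gene called higher, and its counts were low. It had 12.4, 8.1, 5.49, 3.46, 3.59 and 0 exon CPM in the inputs, 42 reads in all. In PSF-RIP it had 32.9, 19, 14.1, 9.73, 9.24 and 5.18 CPM, 496 reads in all. PSF-RIP was above input in each of the 6 pairs, although the groups overlapped, with a log2 ratio of 1.47 (SE 0.23, adjusted p = 1.48e-05). The ratio of summed reads was 2.45, with an exact 95% interval of 1.79 to 3.44 (counting error only, as for all such intervals here). The transcript with most reads, NM_001267699, has 1581 exonic bases and 2 introns, which the files list separately from the shorter standard form. It was chosen by the mean count over all libraries, and most of its reads are from PSF-RIP, so the choice can favour a high ratio. The ratio of the shorter form is not given here.

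The 4 genes that did not pass also had few reads. RPL41, whose product is a very short peptide between the subunits, had 56 input and 259 PSF-RIP reads and a log2 ratio of 0.01 (SE 0.25, adjusted p = 0.976). RPS10 had 13 and 67 reads (0.24, SE 0.40, adjusted p = 0.627) and shares its strand with RPS10-NUDT3. RPL9 had 38 and 153 reads (-0.29, SE 0.28, adjusted p = 0.39). RPL10L, an intronless copy of RPL10 known from testis, had 67 and 309 reads (-0.33, SE 0.25, adjusted p = 0.274). With the length trend taken out, RPL41 (1.33), RPS10 (1.16) and RPL10L (0.65) were called higher.

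A further 6 genes had too few reads to be tested, among them RPS27A (18 input reads), RPL21 (5), RPL7 (4), RPS27 (2) and RPL3L (0), a muscle paralogue of RPL3. The ratio of summed reads was 1.08 for RPL21, with a wide interval of 0.408 to 3.6. Several genes with low counts had little sequence that is found once in the genome. Of all 32-base words in the exons, none of those of RPL21 and RPL7 occurs once in GRCh37, and the share was 4.38% for RPS27, 15.9% for RPS10, 28.1% for RPL9 and 33.8% for RPL41. RPL10L (96.1%), RPS3A (71.1%) and RPS27A (52.0%) had few reads and mostly unique words. RPS2 (10.5%) and RPS28 (3.99%) had few unique words and at least 220 reads in each input. The median over the genes was 50.9% in exons and 93.3% in introns, and only uniquely mapped reads were counted; the part of this in the counts was not tested. Of the 38 tested genes with at least 50% of their words found once, 36 were lower (median -2.01), and of the 35 others 32 were (median -1.50). Among the 66 genes with at least 100 input reads, 66 were lower, with a median of -1.94. Every tested gene that was not lower had fewer input reads than that. Input is the denominator of the ratio, so choosing genes by input reads favours low ratios, and this subset gives no separate support.

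**Figure D2:**
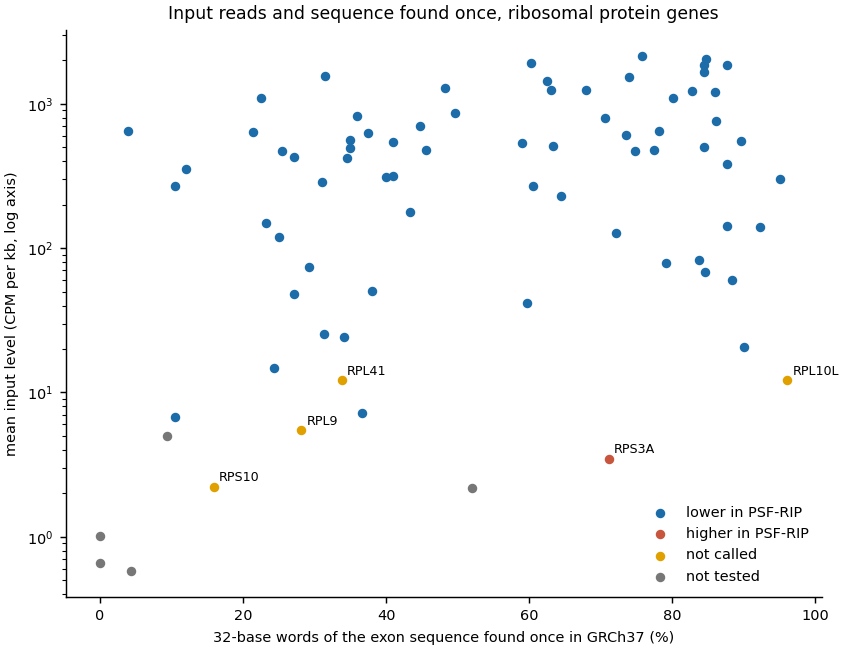
Mean input level (CPM per kb of exon, log axis) against the percent of 32-base exon words found once in GRCh37, for ribosomal protein genes with input reads and a known exon sequence. Genes not called or higher in PSF-RIP are named. These, and the genes not tested, all lie under 20 CPM per kb, and the genes called lower reach 2140 CPM per kb.

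Ribosomal protein genes were also compared with other genes of like length. Among messages of up to 500 exonic bases the median log2 ratio was -2.34 for 9 ribosomal protein genes and -1.62 for 180 other genes. For longer ones up to 1000 bases it was -1.72 (41 genes) against -0.89 (570 genes), and for those above that up to 2000 bases -1.44 (16) against -0.20 (2442). The ribosomal protein genes lay below other genes in each of these classes. Across the 73 genes the ratio rose with log exonic length (Pearson r 0.25, Spearman rho 0.34) and fell with the input level per kb (r -0.51, rho -0.36). These describe genes measured in the same libraries, with counts of one shared depth. Input is also the denominator of the ratio, so the fall with input level is partly built in and cannot be read as an effect of abundance.

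The genes were also read by their start sequence. The 41 genes with a C and at least 5 pyrimidines at the RefSeq start included 39 tested genes, 36 of them lower, with a median of -2.03 and a range of -3.64 to 1.47. The 22 with another start included 21 tested, 19 of them lower, with a median of -1.27 and a range of -3.55 to -0.22. The ranges overlapped almost fully, and the difference was not tested. RPL3 belongs to the second set, and RPS12 and RPS3A to the first.

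The subunits shared the same median log2 ratio, -1.75, with 26 of 28 small and 42 of 45 large subunit genes lower. Large minus small, the difference of medians was -0.23, 0.06, -0.05, 0.06, 0.06 and -0.16 in the 6 pairs, so the large subunit was higher in 3 of 6. Means over the genes gave 0.05 to 0.27, with the large subunit higher in 6 of 6. Without the paralogue copies the difference of medians was -0.27 to 0.01 and that of means -0.06 to 0.16. The copies themselves were lower in 5 of 6 tested (median -1.27), among them RPL22L1 (-2.67, SE 0.11) and RPS27L (-1.99, SE 0.11). RPL39L (-1.4), also counted as lower, had 132 input reads in 22Rv1, 1 in LTAD and 0 in LNCaP, so its call rests on 22Rv1.

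Genes with related roles were read in the same way. Of 7 ribosomal protein genes that the symbol rule leaves out, 6 were lower and RPL36A was higher (1.19), with a median of -1.29. RPL39 (-3.85) and RPS4X (-2.01) were among the lower ones. Of 20 other TOP messages 18 were lower and EIF4A2 was higher (0.46), with a median of -1.07. They included TPT1, a growth-related protein (-3.51), the elongation factors EEF1G (-1.78), EEF1A1 (-1.64) and EEF2 (-0.76), and the poly(A)-binding protein gene PABPC1 (-1.43). Nuclear-encoded mitochondrial ribosomal proteins had 55 of 78 lower and 4 higher (median -0.58). Ribosome biogenesis factors had 15 of 29 higher and 5 lower (median 0.46). The nucleolar protein NCL gave 0.77 and the pseudouridine synthase DKC1 0.68, while FBL, the rRNA methyltransferase, gave -0.50.

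Intron reads behaved differently from exon reads of the same genes. The share of a gene's reads that lay in introns, summed over the ribosomal protein genes, was higher in PSF-RIP in each pair. It was 6.99% in input and 24.3% in PSF-RIP for LNCaP vehicle, and 6.58% and 18.7% for LNCaP DHT. In 22Rv1 it was 6.49% and 15.9% with vehicle, 5.95% and 12.6% with DHT. In LTAD it was 4.74% and 13.2% with vehicle, 4.39% and 10.9% with DHT. Over the other nuclear genes the share was 12.6% to 19.8% in the inputs and 12.5% to 22.7% in PSF-RIP. The genes list 342 introns, of which 60 hold an annotated snoRNA or other gene.

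Taken alone, intron reads were neither higher nor lower in PSF-RIP as a list. Of 76 genes tested 19 were higher, 16 lower and 41 did not pass, where 10.7% of all 11392 genes tested were higher and 8.88% lower. The median log2 ratio was 0.10, beside 0.06 for all genes. RPL41 was highest, with 69.5, 75.5, 62, 41.3, 33.4 and 51.7 intron CPM in the inputs and 244, 216, 129, 169, 159 and 115 in PSF-RIP. Every PSF-RIP value exceeded every input (log2 ratio 1.59, SE 0.18, adjusted p = 1.59e-06). RPS26 (1.37), RPL7 (1.23), RPL10A (1.15) and RPL37A (1.13) came next, each higher in 6 of 6 pairs. For RPL41, RPS26, RPL10A and RPL37A, the intron with most reads is exon over its whole length in other GENCODE transcripts. The RPL7 call was lost without the LNCaP pairs (0.67, adjusted p = 0.142) or the LTAD pairs (1.18, adjusted p = 0.0507). RPS24, a small subunit gene with alternative 3′ exons, gave 1.02 (SE 0.14, adjusted p = 2.74e-05). Of its 5444 intron reads 3736 lay in the intron chr10:79797741-79799961 (hg19), 21 to 93 reads in each input and 216 to 1054 in each PSF-RIP library. That intron is likewise exon in GENCODE over its whole length.

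Several of the lowest intron values had many of their reads in 1 intron. RPS18 had 1200, 1600, 987, 874, 1460 and 1540 intron CPM in the inputs and 644, 558, 197, 214, 430 and 415 in PSF-RIP, without overlap (log2 ratio -1.74, SE 0.15, adjusted p = 2.32e-08). Of its intron reads 47% lay in an intron of 81 bases, chr6:33243661-33243741, which other transcripts in GENCODE hold as exon over its whole length. RPL36 (-1.74, SE 0.17, adjusted p = 1.74e-07) had 73.8% of its intron reads in an intron of 78 bases that is likewise exon in GENCODE. RPS15A gave -1.70 (SE 0.18, adjusted p = 5.39e-07) and was lower in 6 of 6 pairs. Its intron chr16:18799465-18800302 had 289 reads in the inputs and 129 in the deeper PSF-RIP libraries, and its other introns had 152 and 564. RPL37 gave -1.77 (SE 0.34, adjusted p = 0.000694) with only 4 of 6 pairs lower. Its intron chr5:40832676-40834282, which holds SNORD72, had 10, 106, 3, 38, 67 and 88 reads in the inputs and 34 to 86 in PSF-RIP, and the call was lost without the LTAD pairs (-1.16, adjusted p = 0.106). Other lower genes included RPL11 (-1.15), RPL34 (-1.14), RPL23 (-1.02) and RPLP2 (-0.64), and RPL23 turned to 1.60 when introns with small RNAs were left out. The RPL11 call was lost with DESeq2 (adjusted p = 0.0895) and without the LTAD pairs (-0.92, adjusted p = 0.149), and that of RPLP2 without the 22Rv1 pairs (-0.27, adjusted p = 0.266) or the LTAD pairs (-0.71, adjusted p = 0.0834). In RPL11 the intron chr1:24020404-24021149 had 417 reads in the inputs and 473 in PSF-RIP, and the other introns had 78 and 596.

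RPL38, a large subunit protein known for its role in translation of Hox messages, stood apart. Its last intron, chr17:72205449-72205942, held 426 and 432 reads in the LNCaP inputs, 0 and 3 in the 22Rv1 inputs and 0 in both LTAD inputs. In PSF-RIP it held 1 to 11 reads in each library. The fitted log2 ratio of -1.77 (SE 0.55, adjusted p = 0.0241) rests on LNCaP: without that line it was 0.37, and DESeq2 gave -0.86 with an adjusted p of 0.49. The other introns of the gene had 62 reads in the inputs and 461 in PSF-RIP.

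Of the 342 introns, only 68, in 47 genes, contain no GENCODE exon of the same gene. With the rest left out 21 genes could be tested, 3 higher and 8 lower, with a median of -0.44. Introns were left out for the ribosomal protein genes only, and all other genes kept theirs. The other genes are thus no like background for this fit, and its share over all genes is not given here. The other introns lie partly or wholly in exons of other annotated transcripts of the gene.

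The difference between regions was tested in one model. The intron ratio exceeded the exon ratio in 56 of 71 genes, was below it in 1, and 14 did not pass, where 10.6% of 10758 genes were higher and 9.03% lower. The median of intron minus exon was 1.86 on the log2 scale, against 0.00 for all genes, and its pair medians ran from 1.46 (22Rv1 vehicle) to 2.28 (LNCaP vehicle). The largest values were those of RPS28 (4.51, SE 0.34, adjusted p = 5.99e-08), RPLP1 (4.08), RPS13 (3.87), RPL12 (3.84) and RPS20 (3.72), each positive in 6 of 6 pairs. In RPS28, RPLP1, RPL12 and RPS20 the intron with most reads is exon over its whole length in GENCODE, and in RPS13 over 62.2%. RPS28 had 6.35 to 19.3 intron CPM in the inputs and 16.4 to 49.7 in PSF-RIP, while its exon reads fell from between 209 and 285 to between 19.5 and 29.3 CPM. RPLP0 gave 2.61 (SE 0.27, adjusted p = 3.74e-06). RPS6 gave 0.62 (SE 0.23, adjusted p = 0.0592), RPS10 0.49, RPL3 0.38 and RPL7L1 0.31, none of them called. RPS3A was the exception at -1.74 (SE 0.58, adjusted p = 0.0409), a call lost without the 22Rv1 pairs (-1.02) or the LTAD pairs (-1.25). Limited to introns with no GENCODE exon, 8 of 21 genes were called higher, with a median of 0.94. Here too only the ribosomal protein genes were limited, and the share over all genes is not given.

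**Figure D3:**
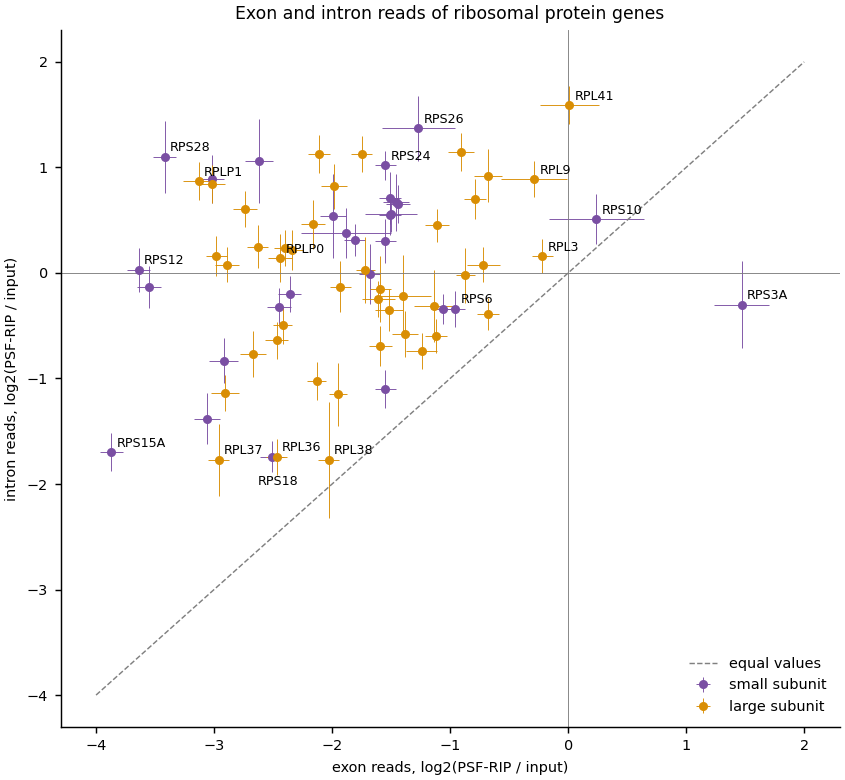
Intron against exon log2 ratio of PSF-RIP to input for the 71 genes with both, with SE bars from the fit, by subunit. The dashed line marks equal values. Every gene but RPS3A lies above the line.

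Exon and intron ratios of a gene were weakly related across the 71 genes (r 0.24, rho 0.19), much as over all 10758 genes (r 0.25, rho 0.24). These values come from the same libraries.

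The intron ratios lay at different levels in the 3 lines. The median intron log2 ratio of the 76 genes was 0.78 and 0.50 in LNCaP (vehicle and DHT), -0.34 and -0.22 in 22Rv1, and 0.26 and 0.22 in LTAD. The number of genes below 0 was 12 and 26 in LNCaP, 56 and 46 in 22Rv1 and 30 and 32 in LTAD. Over all genes the pair medians were 0.01 to 0.09. A line by assay term, added after the data were seen, gave a median of -0.79 for 22Rv1 minus LNCaP, with 69 of 77 genes below 0, beside 0.05 for all 11844 genes. At an unadjusted p under 0.05 there were 36 of the 77 genes, and 1637 of all 11844. After adjustment RPL38 was higher (3.78, background 0.718%) and RPLP2 lower (-1.36, background 0.076%). LTAD minus LNCaP had a median of -0.51 with 59 of 77 below 0. RPL38 was the only gene of all called there (5.19, background 0.00844% higher and 0% lower), and 11 of the 77 had an unadjusted p under 0.05, as did 696 of all 11844. Leaving LNCaP out of the overall intron comparison gave 8 higher and 22 lower genes, leaving 22Rv1 out gave 28 higher and 10 lower, and leaving LTAD out gave 10 higher and 10 lower. The shares over all genes in these fits are not given here.

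**Figure D4:**
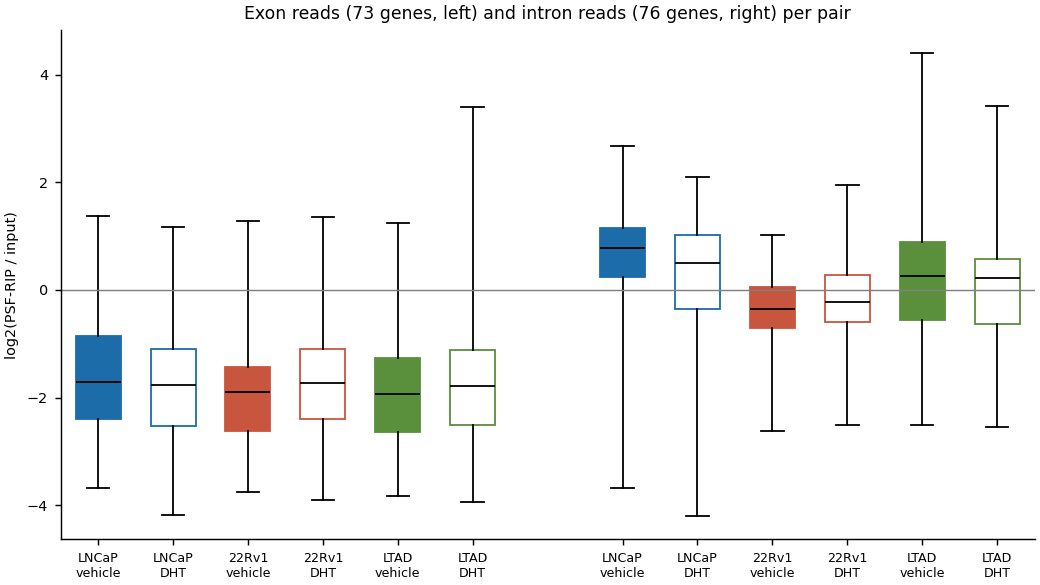
Log2 ratio of PSF-RIP to input per pair for exon reads (left, 73 genes) and intron reads (right, 76 genes). Boxes span the quartiles with the median as a line, and whiskers reach the lowest and highest gene. Exon medians lie between -1.93 and -1.71, and intron medians are highest in LNCaP (0.78 and 0.50) and below 0 in 22Rv1.

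For exon reads no ribosomal protein gene passed the test for a difference in ratio between lines. In edgeR 0 of 74 passed for 22Rv1 against LNCaP and 0 of 74 for LTAD against LNCaP (background 0% in each direction), with 2 and 4 genes at an unadjusted p under 0.05, and DESeq2 also called 0. Of all 13776 genes, 806 and 716 had an unadjusted p under 0.05. The medians of the differences were -0.10 and -0.07. The smallest p-values belonged to RPS14 (-0.68, SE 0.24, adjusted p = 0.844), RPL10A (-0.57) and RPS3 (-0.44) for 22Rv1, and to RPS2 (-0.55, SE 0.21, adjusted p = 0.925), RPL12 (-0.53) and RPS14 (-0.56) for LTAD. For RPS6 the differences were -0.28 and -0.17, for RPLP0 -0.11 and 0.28, and for RPL3 0.18 and 0.20.

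The input levels of the genes did differ between lines. In 22Rv1 28 of 74 genes were lower than in LNCaP and 5 higher, with backgrounds of 23.4% and 26.5%. The median log2 difference was -0.35, and it was the same with genes at 0 in a line set to their bound. It was -0.19 with vehicle and -0.47 with DHT. In bulk RNA, a lower level in all cells and fewer cells with the message cannot be told apart. Without TMM factors 45 genes were lower (median -0.61). The count of lower genes was 10 without the 22Rv1 DHT pair, 13 without the LNCaP DHT pair and 16 without the 22Rv1 vehicle pair. The shares over all genes in these alternative fits, which may move as well, are not given here.

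The clearest differences were in paralogue copies. RPL39L, a copy of RPL39 known from testis and from some tumour lines, had 40.3 and 45.7 exon CPM in the 22Rv1 inputs (132 reads), 0 reads in both LNCaP inputs and 1 read in the LTAD inputs. It was at least 34.8-fold higher in 22Rv1 than in LNCaP, against a floor of 3 reads over the LNCaP inputs (adjusted p = 1.3e-05). RPL10L showed the reverse, with 10.7 and 16.2 CPM in LNCaP (33 reads), 15.6 and 16.5 in LTAD (34 reads) and 0 reads in both 22Rv1 inputs. It was at least 13.9-fold higher in LNCaP and at least 16.6-fold higher in LTAD than the 22Rv1 floor. Both copies were absent from the PSF-RIP libraries of the line in which the input had none. RPL22L1, a copy of RPL22, had 310 and 347 CPM in LNCaP, 154 and 121 in 22Rv1 and 400 and 299 in LTAD (22Rv1 minus LNCaP -1.26, SE 0.18, adjusted p = 0.000116). RPL22 itself was higher in 22Rv1, at 127 and 109 CPM against 64.3 and 61.6 (0.91, SE 0.17, adjusted p = 0.00109).

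Among the core proteins, RPL37 was lowest in 22Rv1, at 541 and 468 CPM against 1100 and 1220 in LNCaP and 984 and 852 in LTAD (-1.21, SE 0.14, adjusted p = 2.17e-05). RPL13A (-0.87), RPL17 (-0.83), RPS25 and RPL3 (-0.81 each) were lower as well. RPS19, a gene mutated in Diamond-Blackfan anaemia, was higher, at 664 and 640 CPM against 340 and 372 (0.87, SE 0.16, adjusted p = 0.000759), and so was RPS21 (0.79). The RPS21 call was lost without the LNCaP vehicle pair (0.54, adjusted p = 0.0657), the 22Rv1 vehicle pair (0.76, adjusted p = 0.07) or the 22Rv1 DHT pair (0.83, adjusted p = 0.0521). RPSA, also known as the laminin receptor, passed at 1.04 (adjusted p = 0.0399) but not with DESeq2 (adjusted p = 0.114), nor without the LNCaP vehicle pair (0.66, adjusted p = 0.365), the 22Rv1 vehicle pair (1.25, adjusted p = 0.118) or the 22Rv1 DHT pair (0.87, adjusted p = 0.222). RPS6 was lower (-0.67, adjusted p = 0.00166) and RPLP0 did not pass (0.30, adjusted p = 0.109).

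**Figure D5:**
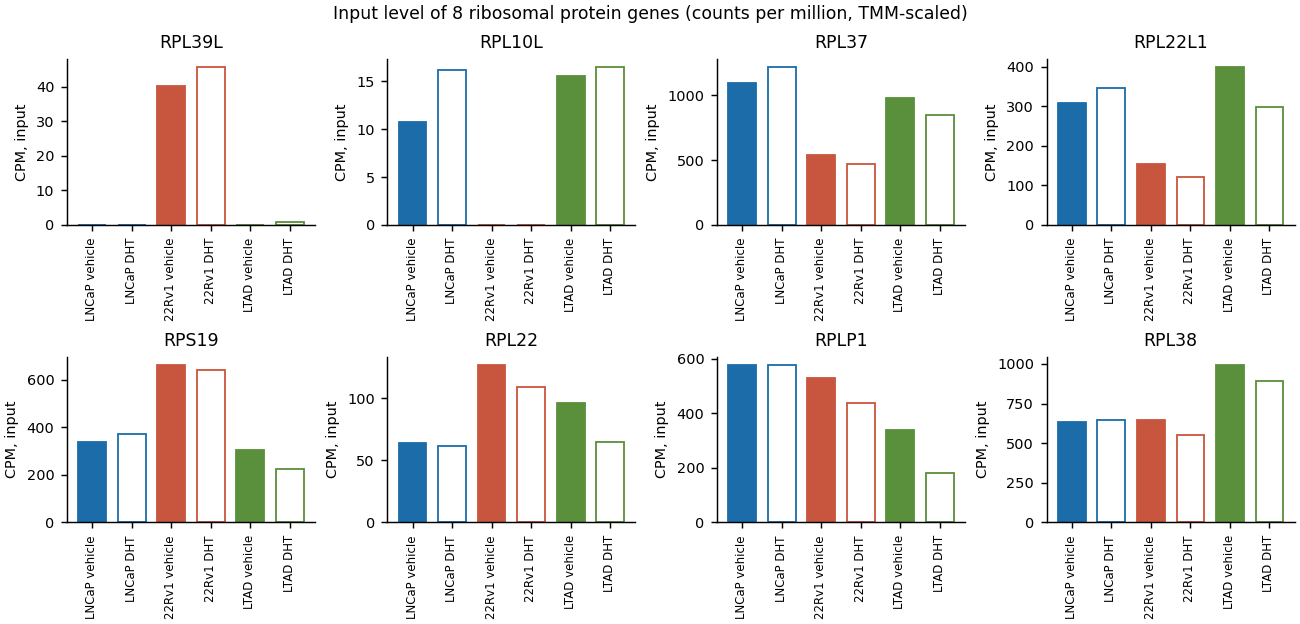
Exon level in the 6 input libraries (CPM, bars from 0) for 8 ribosomal protein genes, filled for vehicle and open for DHT. RPL39L has reads almost only in 22Rv1 and RPL10L only in LNCaP and LTAD. RPL37 and RPL22L1 are lowest in 22Rv1, and RPS19 is highest there.

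Fewer genes were called between LTAD and LNCaP. Only 3 of 74 genes were called, 2 lower and 1 higher, with backgrounds of 5.28% and 2.93%, and the median was -0.11. RPLP1 had 340 and 183 CPM in the LTAD inputs against 579 and 577 in LNCaP (-1.20, SE 0.20, adjusted p = 0.00399). RPL38 was higher, at 996 and 894 CPM against 636 and 649 (0.55, SE 0.14, adjusted p = 0.0294). RPS3A had 3 reads in LTAD and 25 in LNCaP (ratio 0.14, exact 95% interval 0.027 to 0.458, adjusted p = 0.0376). The RPS3A call was lost with DESeq2 (adjusted p = 0.0677) and without any one pair other than LTAD vehicle (adjusted p 0.0829 to 0.221). The RPL38 call was lost without any one of the 6 pairs (adjusted p 0.0528 to 0.288) and with the length trend taken out (0.0675). The count of calls was 1 without either LNCaP pair, either 22Rv1 pair or the LTAD DHT pair, and 2 without the LTAD vehicle pair.

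DHT moved no ribosomal protein gene past the threshold. In the inputs edgeR called 0 of 74 genes over the 3 lines, with 4 at an unadjusted p under 0.05 (1566 of all 13776 genes), and DESeq2 called 0 of 63. Of all genes 0.436% were higher and 0.181% lower. The median was -0.14, and by line it was 0.07 in LNCaP, -0.22 in 22Rv1 and -0.29 in LTAD. RPL23A had 84.9, 82.4 and 92.2 CPM with vehicle (LNCaP, 22Rv1, LTAD) and 73.7, 46.4 and 47.3 with DHT (-0.65, SE 0.19, adjusted p = 0.202, lower in 3 of 3 lines). It passed when genes with low counts were kept in the test (-0.64, adjusted p = 0.036). RPS15A (-0.39) and RPL12 (-0.29) had the next smallest p-values. For RPS6 the difference was -0.10, for RPLP0 -0.25 and for RPL3 -0.14.

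The ratio of PSF-RIP to input did not change past the threshold with DHT either. edgeR called 0 of 74 genes (background 0% in each direction), 3 had an unadjusted p under 0.05 (225 of all 13776 genes), and DESeq2 called 0 of 74. The median was 0.04. RPL6 (-0.52, SE 0.21), RPL28 (0.33, SE 0.14) and RPS25 (0.39, SE 0.17) had the smallest p-values, and RPS6 gave 0.11, RPLP0 -0.07 and RPL3 0.09.

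Crosslinking and immunoprecipitation sequencing (CLIP-seq) marks where a protein touches RNA, and 4 lists of PSF-CLIP peaks were at hand for LNCaP, 2 with vehicle and 2 with DHT. The first lists held 24242 (vehicle) and 23580 (DHT) peaks, with median widths of 491 and 410 bases. The second lists held 7691 and 13546, with 139 and 158 bases. The lists of a treatment therefore cannot be read as like replicates. A gene counted as having a peak where at least 1 base overlapped, without regard to strand, which the lists do not give. Of the 79 ribosomal protein genes 18 (22.8%) had a peak in the first vehicle list against 44% of 13341 genes, and 0 against 11.4% in the second. The DHT lists had 14 (17.7%) against 42.4% and 5 (6.33%) against 26.8%. Ribosomal protein genes are short, with a median of 4430 bases against 26278, and per 100 kb of gene they had 4.98 peaks against 2.1 for all genes in the first vehicle list, 3.56 against 2.0 in the first DHT list and 1.42 against 0.842 in the second. In the second vehicle list they had 0 against 0.259. No test was made of these shares.

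In all, 20 of the genes had a peak in at least 1 list, 4 in 3 lists and 0 in 4. Of 42 peaks, 32 had their centre in an intron of the 1 transcript used per gene, which may be exon in other GENCODE transcripts. The 4 genes with peaks in 3 lists were RPL34, with 6 peaks, RPL22L1, RPL31 and RPSA, with 3 each, and RPL22 had 3 peaks in 2 lists. One narrow peak of each of these 4 genes in the second DHT list is shown because it lies within a wider peak of both first lists. RPL34 had another such peak there, chr4:109545342-109545465, which is not printed. They are read from GRCh37 (hg19) on the strand of the gene, all of them in introns of the transcript used. The RPSA peak lies in an intron that is exon over its whole length in other GENCODE transcripts. Capitals mark 27 bases of the snoRNA SNORA6 inside RPSA.
RPL22L1 (chr3:170584978-170585110, minus strand): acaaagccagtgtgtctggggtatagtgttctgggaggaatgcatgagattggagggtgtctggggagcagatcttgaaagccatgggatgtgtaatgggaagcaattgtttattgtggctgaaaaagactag
RPL31 (chr2:101621602-101621718, plus strand): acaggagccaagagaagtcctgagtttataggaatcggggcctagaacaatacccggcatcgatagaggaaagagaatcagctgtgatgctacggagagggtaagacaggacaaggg
RPL34 (chr4:109544957-109545085, plus strand): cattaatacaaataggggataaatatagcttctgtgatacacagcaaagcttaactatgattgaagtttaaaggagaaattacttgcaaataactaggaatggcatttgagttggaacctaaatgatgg
RPSA (chr3:39449668-39449906, plus strand): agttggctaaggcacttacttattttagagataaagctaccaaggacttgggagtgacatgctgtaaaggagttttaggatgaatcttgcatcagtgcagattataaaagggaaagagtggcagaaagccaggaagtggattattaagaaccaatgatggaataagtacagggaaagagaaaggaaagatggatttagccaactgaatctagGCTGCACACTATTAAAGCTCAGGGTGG
The share of A was 39.5% in the RPL34 peak shown and 36.4% in the RPSA peak, and that of T was 14.5% in the RPL31 peak and 27.9% in that RPL34 peak, while the RPL34 peak not printed had 23.4% A and 34.7% T.

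These 4 genes were all lower in exon reads of PSF-RIP (RPL34 -2.91, RPL22L1 -2.67, RPL31 -1.61, RPSA -1.50), and their intron ratios differed: RPL34 (-1.14) and RPL22L1 (-0.77) were lower, RPSA was higher (0.56, SE 0.17, adjusted p = 0.0231) and RPL31 did not pass (-0.25). The RPL22L1 intron call was lost without the 22Rv1 pairs (-0.51, adjusted p = 0.138) or the LTAD pairs (-0.61, adjusted p = 0.227), and its value turned to 0.79 when introns with a GENCODE exon were left out. Genes with and without a peak had close ratios. The exon median was -1.88 for 19 genes with a peak and -1.74 for 54 without, and the intron median 0.12 for 20 and 0.10 for 56.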

How the data were processed

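The authors deposited RIP-seq read counts, not normalized, for each RefSeq transcript and intron of hg19, taken from uniquely mapped reads per the file headers. The deposited CLIP-seq lists give peak positions with a score, and the score, whose scale is not given in the sources used here, only ranked peaks within a list. The submitters' processing notes name GRCh37, hg19, TopHat2 2.1.0, Bowtie2 2.2.6 and Bowtie. The libraries came from an Agilent SureSelect RNA XT kit and the RIP from a Millipore EZ-Magna kit, per the labels' protocols.

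Sense exon reads of 1 transcript per gene (the highest mean count) and the introns of that transcript were compared in R 4.3.3 by edgeR 4.0.16 with limma 3.58.1: quasi-likelihood, TMM, its expression filter, Benjamini-Hochberg at 0.05 over all genes. PSF-RIP against input had additive line and treatment terms. Line and DHT comparisons used 1 model in which line and treatment each interacted with assay. Intron minus exon used both counts of each library with a term per library. Values for single pairs use a prior count of 2, and floors are 3 reads. DESeq2 1.42.0 was an alternative, beside no TMM factors, no filter, the longest transcript, a length trend taken out, mitochondrial genes left out, and each line or pair left out. The scripts were tested on simulated data.

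Input and PSF-RIP libraries pair by line and treatment, which the labels give; deviations of paired libraries correlated at 0.32 to 0.38. The genes, lists and tests were chosen with earlier results of these data known. The text names the 10 lowest and 10 highest exon ratios, the 5 lowest and 5 highest intron and intron-minus-exon values, genes against the main direction, all called genes of a line or DHT comparison up to 10 (otherwise the 5 smallest p in each direction, or 3 where none was called), the genes with most CLIP peaks, and RPS6, RPLP0 and RPL3. Others, such as RPS24, RPL11 and RPL23, were picked after their values were seen. Some genes that the rule would name are not reported here. A second LNCaP set of 4 samples, with 12 columns of values, was not used here because its labels contradict each other. Promoters come from RefSeq (GRCh38.p14), intron checks from GENCODE on GRCh37, where 340 of 342 introns start with GT and end with AG.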

Additional observations from a re-analysis of the deposited data

Results flagged for a closer look

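The intron ratio of PSF-RIP to input differed between lines in a test of the difference itself for a pair of ribosomal protein genes. RPL38 was 3.78 higher on the log2 scale in 22Rv1 than in LNCaP (SE 0.44, adjusted p = 0.000216, edgeR) and 5.19 higher in LTAD than in LNCaP (SE 0.48, adjusted p = 2.56e-06), higher with vehicle and with DHT in each. Its intron level was 1700 and 1990 CPM in the LNCaP inputs and 25 to 45.2 CPM in the other 4 inputs. RPLP2 was lower in 22Rv1 than in LNCaP (-1.36, SE 0.29, adjusted p = 0.0369), by -1.45 with vehicle and -1.30 with DHT. Its inputs held 354 to 485 intron CPM, and its PSF-RIP libraries 470 and 401 in LNCaP, 141 and 144 in 22Rv1 and 343 and 304 in LTAD. Of the RPLP2 intron reads 47.5% lay in the intron chr11:811646-812534, which holds SNORA52. That intron is exon over 73.1% of its length in GENCODE. DESeq2 called 3 of the 24 genes to which it gave an adjusted p for 22Rv1, and 1 of 77 for LTAD.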

How the results depend on the processing

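Of 225 recomputed counts and medians 187 stayed within 1.5 times the count or 1 SD. Of 981 values of named genes 10 changed sign with a call in the main or the other fit. Of the rest 47 lost a call, 8 gained one and 916 kept their call or lack of one. Sign changes of genes called in neither fit are among the 916 and were not counted. For exon reads the median of -1.75 became -1.43 without TMM factors, -1.57 without the filter, -0.82 with the length trend taken out, -1.94 with at least 100 input reads and -2.01 (36 lower) with at least 50% of words found once. Among genes called in the main or the other fit, the sign changed with the length trend taken out for RPL7A (0.06), RPL17 (0.10), RPL10L (0.65) and RPL3 (0.18). For RPL3 it also changed without TMM factors (0.11). Leaving out each line gave 65 to 69 lower genes (medians -1.81 to -1.77). Counts of called genes in this section are given without the share over all genes, which may also move with the setting. For introns leaving out lines gave 8 to 28 higher and 10 to 22 lower genes (medians -0.19 to 0.46), and leaving out introns with a GENCODE exon gave 3 higher, 8 lower and -0.44. RPL38 ran from -2.63 without LTAD to 0.37 without LNCaP, RPL22L1 0.79 and RPL3 -0.55 without introns that hold a GENCODE exon, and RPL23 1.60 and RPL3 -0.57 without introns that hold small RNAs.

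Intron minus exon had 49 to 61 higher genes (medians 1.74 to 2.08) without a line, 8 (0.94) without introns that hold a GENCODE exon and 27 with at least 50% of words found once. Leaving out pairs, exon ratio medians ran from -0.22 to 0.04 for 22Rv1 and from -0.23 to 0.09 for LTAD (0.10 with the length trend taken out), input medians from -0.51 to -0.17 (3 to 5 higher, 10 to 31 lower) and from -0.23 to 0.09 (1 to 2 called). Without TMM factors 22Rv1 inputs had 45 lower genes (-0.61), and with the length trend taken out LTAD inputs had 11 calls. DHT medians without a line ran from -0.25 to -0.06 in inputs and from -0.02 to 0.15 for the ratio, with 0 calls, and 1 gene was called in inputs without the filter. Peaks in the upper part of each list by score left 7, 8 and 2 genes of 18, 14 and 5. Means over genes gave 0.18 for large minus small. A replicate block for each pair gave 69 lower genes (-1.73) for exons and 20 higher and 16 lower (0.13) for introns, and changed no call of a named gene. Leaving mitochondrial genes out was not run for introns, since they have none. Causes were not tested. The subsets by reads and words, the GENCODE introns and intron ratios by line were chosen after seeing the data. Depth limits the genes with few exon reads.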
